A study of Mus musculus with 9 samples.

Results

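Heparan sulfate is a sulfated sugar chain carried by proteoglycans at the cell surface and in the extracellular matrix, and the genes that build, edit and carry it were compared between the otic vesicle (OV) and the rest of the mouse embryo at embryonic day E10.5. The genes were selected by the symbol printed on the array for each probe: the exostosin polymerases (Ext, Extl), the N-deacetylase/N-sulfotransferases (Ndst), the 2-O-, 6-O- and 3-O-sulfotransferases (Hs2st, Hs6st, Hs3st), the endosulfatases (Sulf), the glypicans (Gpc), the syndecans (Sdc) and the carbohydrate sulfotransferases (Chst). This gave 38 genes and 52 probes of the 18120 gene symbols and 25697 probes tested. Of 46 mouse symbols of these families in the RefSeq gene table, the other 8 (*Chst13*, *Chst14*, *Chst15*, *Hs3st2*, *Hs3st4*, *Hs3st5*, *Ndst2* and *Sulf2*) were not analysed here under those symbols. No signal entered the selection by symbol, but the family was picked with the tissue differences of these arrays already known, *Hs3st1* foremost, so its OV values are a description and not independent evidence about the family.

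The OV is the closed epithelial vesicle from which the sensory cells and neurons of the inner ear arise. All 9 samples came from E10.5 embryos of the outbred CD-1 strain with no transgene or treatment named, and each was 1 pool on 1 single-colour Illumina MouseRef-8 v2.0 array. The OV group held 3 pools of 20 dissected vesicles, the periotic group 3 pools of the tissue around the vesicle, which is mesenchyme together with hindbrain, and the embryo-minus-otic group 3 pools of the embryo without the greater otic region. The tissue came from 3 litters. Each *q*-value (a Benjamini-Hochberg adjusted *p* from limma over all 25697 probes) rests on the spread between pools and not between single embryos. In limma the spread of each probe is drawn towards that of all probes. Throughout, "called" stands for *q* below 0.05, fold Δ is the difference of 2 group means of log2 signal turned into a linear ratio, a log2 difference followed by ± carries its standard error, and levels are log2 quantile-normalized signal, which is comparable between tissues for 1 probe but not between probes.

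Heparan sulfate chains are polymerised in the Golgi by Ext1 and Ext2, then trimmed and sulfated by the Ndst enzymes and by the 2-O-, 6-O- and 3-O-sulfotransferases, of which the last add the rarest modification. Outside the cell the Sulf enzymes remove 6-O-sulfates again. Glypicans hold the chains at the membrane through a lipid anchor and syndecans through a transmembrane stretch, and the sulfation pattern decides which growth factors the chains bind, among them fibroblast growth factors, Wnts and Hedgehog proteins, which also pattern the developing ear. Most Chst enzymes sulfate other sugars, such as chondroitin and keratan sulfate, and are kept apart below.

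Per array, 11283 to 12160 probes were above background (detection *p* below 0.01), which is 43.9% to 47.3% of all probes. Marker genes were compared between the groups. *Oc90*, *Fbxo2*, *Lmx1a*, *Gata3* and *Cldn6* stand high in the study's own ranking of OV genes, made from these same arrays. Their direction was therefore known beforehand and is no test of the OV label. The 6 otic genes given here, *Oc90*, *Fbxo2*, *Lmx1a*, *Gata3*, *Pax2* and *Dlx5*, were all called higher in OV in both comparisons, with a summed linear signal of 4663 to 5224 on the OV arrays against 499 to 540 and 521 to 545 on the periotic and embryo-minus-otic arrays. *Oc90*, *Pax2* and *Dlx5* were above background on no periotic array. Other cells moved with the groups too: the 2 epithelial genes *Cdh1* and *Cldn6* summed to 5958 to 6817 in OV against 371 to 481 and 636 to 1038, and both were higher in OV. The 7 hindbrain genes summed to 1023 to 1064 in OV, 5146 to 6164 in periotic tissue and 1738 to 1965 in embryo-minus-otic. Of the 7, 5 were lower in OV than in periotic tissue, and the remaining *Pax6* and *Sox1* were above background on no array. The 7 mesenchymal genes summed to 1209 to 1383, 1234 to 1568 and 3108 to 3625, so that OV and periotic tissue overlapped, with 1 of the 7 called between them and all 7 called lower in OV than in embryo-minus-otic. The 6 erythroid genes were lower in OV in both comparisons and summed to 29877, 22346 and 12087 in OV replicates 1, 2 and 3, against 47393 to 69294 in the other arrays. The 4 heart muscle genes summed to 530 in OV replicate 1, 231 to 236 in the other OV pools, 235 to 246 in periotic tissue and 5994 to 7264 in embryo-minus-otic, and all 4 were called lower in OV and in periotic tissue than in embryo-minus-otic. The 4 liver genes summed to 236 to 259 and 234 to 278 against 512 to 657, with 2 called lower in each of these comparisons. Among them, *Alb1* was above background on no array. The sums also count the signal of genes not above background. No heart muscle or liver gene was above background on all OV arrays or on all periotic arrays, so these sums give no ratio between tissues. The 5 endothelial genes summed to 439 to 498, 538 to 620 and 586 to 684, with 1 lower in OV than in periotic tissue and 2 lower than in embryo-minus-otic. The part of these cell types in the differences described next was not tested, and in such bulk RNA fewer cells of a type and less RNA per cell cannot be told apart.

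Against both non-otic groups, the OV had more signal for *Hs3st1*, *Hs3st6*, *Sulf1*, *Gpc1*, *Gpc4*, *Gpc6*, *Chst3* and *Chst5*, and less for *Sdc4* and *Chst1*. *Hs3st1* differed most, at 5.83-fold or more. Among the enzymes that build the chain, *Ndst1* was called higher in OV than in periotic tissue, *Extl2* lower, and 1 *Extl3* probe higher than in embryo-minus-otic, while *Ext1*, *Ext2*, *Hs2st1* and *Hs6st1* passed the test in no comparison. Against periotic tissue, 11 of the 52 probes (10 genes) were called higher in OV where 5.07% of all probes were, and 4 probes (*Chst1*, *Chst10*, *Extl2*, *Sdc4*) were called lower where 5.15% of all probes were. Against embryo-minus-otic, 11 probes (10 genes) were higher and 6 probes (5 genes) lower, beside 5.89% and 5.51% of all probes. Called higher in OV in both comparisons were 10 probes of 9 genes (3.51% of all probes), the 9th gene being *Chst9*, whose probe was above background on no array, and 2 probes were lower in both (2.65% of all probes). Between the non-otic groups, *Sulf1* was the 1 probe called higher in periotic tissue (2.86% of all probes were), and 5 probes of *Chst1*, *Chst7*, *Gpc3* and *Hs3st3a1* were called lower (2.95% of all probes). Because the family was picked with these contrasts in view, nothing is read from its shares beside those of all probes. The median difference over the 52 probes, of which 33 were above background on all arrays of a group, was 0.05, 0.02 and 0.00 log2 units for OV minus periotic, OV minus embryo-minus-otic and periotic minus embryo-minus-otic, beside -0.00, 0.00 and 0.01 over all probes. The comparisons share arrays and are therefore given side by side.

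**Figure D1:**
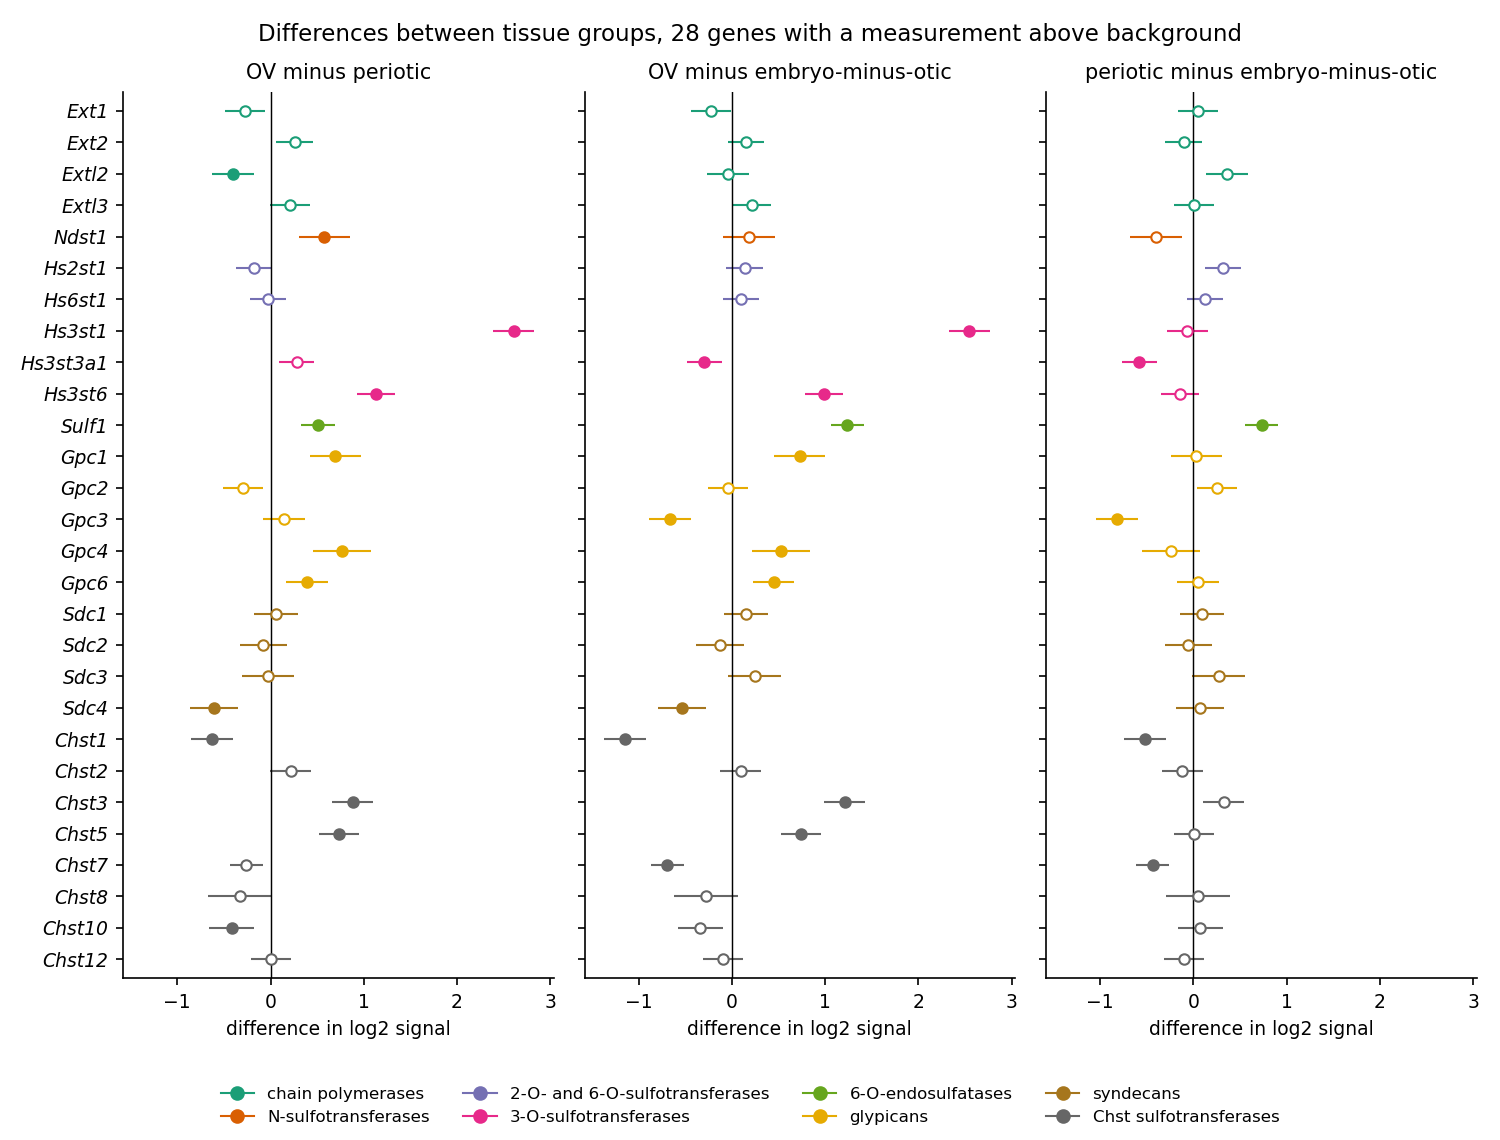
Difference in log2 signal (x axis) for the 28 genes detected throughout a group, in 3 panels for OV minus periotic, OV minus embryo-minus-otic and periotic minus embryo-minus-otic. Points are the fitted differences coloured by role, bars their 95% intervals, and filled points have *q* below 0.05. *Hs3st1* lies farthest to the right in both OV panels, at 2.61 and 2.54, and near 0 between the non-otic groups.

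*Hs3st1*, on chromosome 5, encodes a 3-O-sulfotransferase known for making the antithrombin-binding motif of heparan sulfate. Its log2 signal was 9.39, 9.50 and 9.78 in the OV pools, 6.88, 6.92 and 7.04 in periotic tissue and 6.95, 7.01 and 7.07 in embryo-minus-otic. Every OV pool thus lay more than 2 log2 units above every other pool, and the non-otic groups overlapped. The means were 9.56 ± 0.20 (SD, n = 3), 6.95 ± 0.084 and 7.01 ± 0.058. OV exceeded periotic tissue 6.10-fold (log2 difference 2.61, standard error 0.103, 95% interval 2.39 to 2.83) and embryo-minus-otic 5.83-fold (2.54, interval 2.32 to 2.76). These 2 values drew attention to the family, so they are given as a description with no *q*-value, and the counts of calls above include them. Periotic tissue and embryo-minus-otic differed by -0.06 (interval -0.28 to 0.16, *q* = 0.861). The probe was above background on all 9 arrays, and its fold Δ was 8.54 and 8.0 once the background was modelled and subtracted.

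The promoter windows of the genes that differed by more than 1 log2 unit between OV and another tissue are shown so that the sequence before their starts can be read beside the values. RefSeq (GRCm38.p6) held such a window for 28 of the 38 genes and for 3 of the 5 past that limit. The others were *Hs3st6* and *Sulf1*. Each window runs 5′ to 3′ along the gene's strand, with the 250 bases before the annotated start in lower case and the first 50 bases from it in capitals.
Hs3st1, chr5:39644582-39644881, minus strand: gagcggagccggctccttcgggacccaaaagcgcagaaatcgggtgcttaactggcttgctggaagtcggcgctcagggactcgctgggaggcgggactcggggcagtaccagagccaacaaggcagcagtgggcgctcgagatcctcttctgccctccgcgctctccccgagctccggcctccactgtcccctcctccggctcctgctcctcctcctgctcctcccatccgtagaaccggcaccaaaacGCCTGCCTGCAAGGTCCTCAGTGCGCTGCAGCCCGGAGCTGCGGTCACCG
Chst3, chr10:60219211-60219510, minus strand: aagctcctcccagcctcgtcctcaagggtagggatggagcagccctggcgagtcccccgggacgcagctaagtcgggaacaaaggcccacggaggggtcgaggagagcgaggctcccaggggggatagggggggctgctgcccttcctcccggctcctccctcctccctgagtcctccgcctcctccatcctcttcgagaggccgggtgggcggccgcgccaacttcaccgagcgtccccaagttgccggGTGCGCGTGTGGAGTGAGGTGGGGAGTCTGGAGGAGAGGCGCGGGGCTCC
Chst1, chr2:92600867-92601166, plus strand: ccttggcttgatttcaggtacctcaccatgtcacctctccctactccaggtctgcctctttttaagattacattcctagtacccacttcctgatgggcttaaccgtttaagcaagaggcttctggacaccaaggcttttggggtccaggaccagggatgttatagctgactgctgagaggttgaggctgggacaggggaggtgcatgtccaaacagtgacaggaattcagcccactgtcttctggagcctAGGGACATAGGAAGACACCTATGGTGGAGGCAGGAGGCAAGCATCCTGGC
The windows of *Hs3st1* and *Chst3* were 67% and 70% G and C. That of *Chst1* was 52.7%, the median of all 32851 windows. Whether the share of G and C goes with the signal in OV was not tested. On either strand, GGGCGG (the GC box) was found 1 time in the *Chst3* window and not in the other two, and it occurs in 35.7% of all windows. The TATA box, searched as TATAAA on both strands, was in none of the 3 windows shown and in 13.6% of all windows. The same search for CCAAT also found no match in the 3, against 37.4% of all windows. The E-box (CANNTG) had no match in the 3 and one in 72.3% of all windows. The GATA site, spelled AGATAA, had none in the 3 and one in 11.2% of all windows. A missing match says only that these letters do not occur in these 300 bases.

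The remaining 3-O-sulfotransferases did not follow one pattern. *Hs3st6* was above background on the 3 OV arrays and on none of the other 6. Its log2 signal was 6.82, 7.02 and 6.88 in OV, against 5.89, 5.63 and 5.80 in periotic tissue and 5.93, 6.0 and 5.82 in embryo-minus-otic. All OV pools were above all others. OV was at least 1.65-fold above periotic tissue (measured difference 1.13 ± 0.096, *q* = 5.18e-07) and at least 1.61-fold above embryo-minus-otic (0.99, *q* = 2.48e-06). *Hs3st3a1*, one of a pair of closely related enzymes that make the 3-O-sulfated site bound by a herpesvirus glycoprotein, ran the other way against the embryo. Its signal was 7.79, 7.66 and 7.73 in the OV pools, 7.43, 7.48 and 7.43 in the periotic pools and 8.17, 7.96 and 7.94 in embryo-minus-otic, so the 3 groups did not overlap. Periotic tissue was 1.49-fold below embryo-minus-otic (-0.58 ± 0.088, *q* = 5.65e-04), and OV was 1.23-fold below it (-0.30, *q* = 0.0403), while OV minus periotic was 0.28 (*q* = 0.0602). The OV call was lost in 10 of 18 alternative settings, with *q* up to 0.780, and the periotic call with median scaling or no normalization (*q* up to 0.216). Its partner *Hs3st3b1* rose above background on 1 embryo-minus-otic array and no other, and since probe sequences were not used here, signal shared between these close relatives cannot be told apart.

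**Figure D2:**
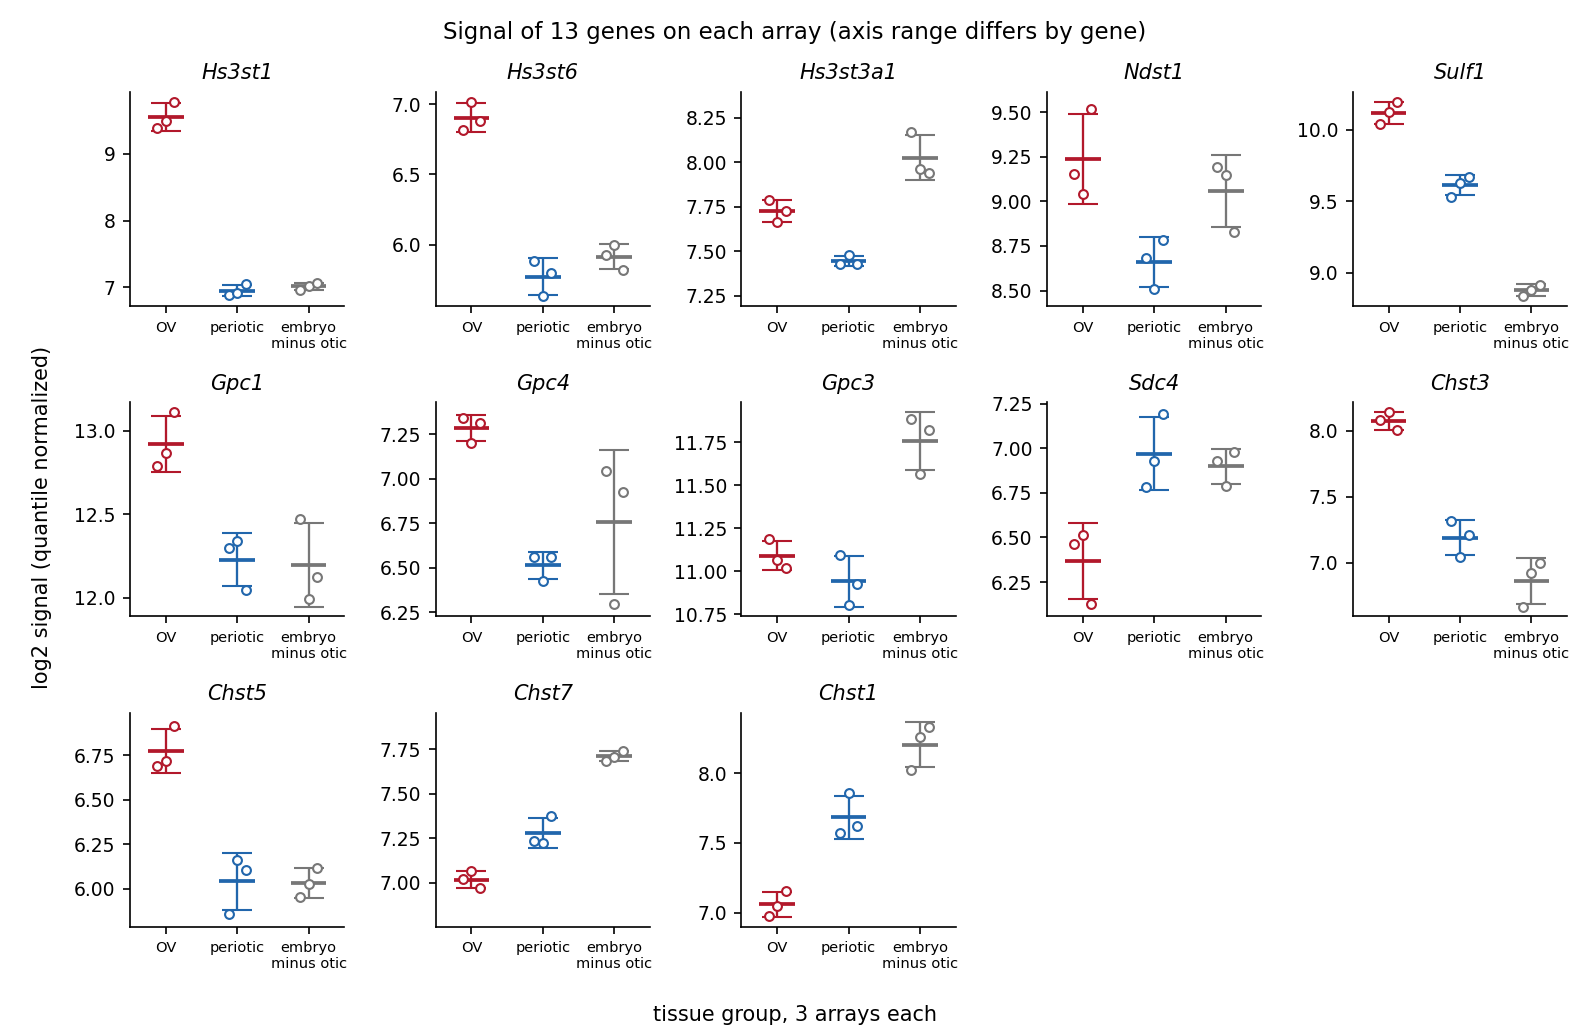
Log2 quantile-normalized signal (y axis, range set per gene) of the 13 genes called in a comparison with a difference of at least 0.5 log2 units, by tissue. Dots are single arrays and bars the mean ± SD (n = 3). The OV dots of *Hs3st1*, at 9.39 to 9.78, are clear of all 6 others, whereas those of *Ndst1* overlap embryo-minus-otic.

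*Sulf1*, which encodes an extracellular endosulfatase that takes 6-O-sulfates off finished chains, was graded across the tissues. It measured 10.04, 10.13 and 10.19 in OV, against 9.53, 9.63 and 9.67 in periotic tissue and 8.84, 8.88 and 8.92 in embryo-minus-otic. The 3 groups were fully separated, with SDs of 0.077, 0.072 and 0.041. OV was 2.36-fold above embryo-minus-otic (1.24 ± 0.084, *q* = 4.83e-08) and 1.42-fold above periotic tissue (0.51, *q* = 6.23e-04), and periotic tissue was 1.66-fold above embryo-minus-otic (0.73, *q* = 3.63e-05). The OV to periotic call was lost with median scaling or no normalization (*q* up to 0.261). On the adding side of the same position, *Hs6st1* differed by -0.03 and 0.10 between OV and the other tissues and was not called. *Hs6st2* was above background on all arrays of no group, and *Hs6st3* likewise.

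Among the polymerases, no call involved *Ext1* or *Ext2*, the subunits of the chain-elongating complex. *Ext1* was -0.27 (*q* = 0.128) and *Ext2* 0.26 (*q* = 0.102) in OV minus periotic. *Extl2*, which can end a growing chain, fell by 0.40 in OV against periotic tissue (*q* = 0.0219). *Extl3*, which starts the heparan sulfate chain on its linker, had 2 probes above background, and 1 of them was called. The brighter differed by 0.21 in both OV comparisons (*q* = 0.291 and 0.246), and the other rose by 0.43 against embryo-minus-otic (*q* = 0.0159, 95% interval 0.20 to 0.67, which overlaps that of the brighter probe). That call was lost without OV replicate 3 (0.37, *q* = 0.0818).

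*Ndst1*, the main N-deacetylase/N-sulfotransferase of embryonic tissue, which opens the chain to the later sulfotransferases, was higher in OV than in periotic tissue. It measured 9.15, 9.04 and 9.52 in the OV pools, 8.68, 8.51 and 8.79 in the periotic pools and 9.19, 9.15 and 8.83 in embryo-minus-otic. The OV and periotic pools did not overlap and the OV and embryo-minus-otic pools did. OV was 1.49-fold above periotic tissue (0.58 ± 0.131, *q* = 0.00758), a call lost with median scaling or no normalization (*q* up to 0.126). Against embryo-minus-otic the difference was 0.18 (*q* = 0.507). The second *Ndst1* probe gave 0.33 against periotic tissue (*q* = 0.125) with overlapping groups. *Hs2st1*, the single 2-O-sulfotransferase gene, came nearest to a call between the non-otic groups (0.32, *q* = 0.0585).

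The glypicans *Gpc1*, *Gpc4* and *Gpc6* rose in OV, and *Gpc3* fell there relative to the embryo. *Gpc1* measured 12.79, 12.87 and 13.11 in OV, against 12.30, 12.34 and 12.05 in periotic tissue and 12.47, 11.99 and 12.12 in embryo-minus-otic. Every OV pool was above every other pool. The fold Δ was 1.62 over periotic tissue (0.70 ± 0.128, *q* = 0.0015) and 1.66 over embryo-minus-otic (0.73, *q* = 0.00102), and the non-otic groups differed by 0.03 (*q* = 0.954). *Gpc4* measured 7.34, 7.20 and 7.31 in the OV pools, 6.56, 6.43 and 6.56 in the periotic pools and 7.05, 6.30 and 6.93 in embryo-minus-otic. All OV pools were again above all others, and the low embryo-minus-otic pool was replicate 2. OV was 1.70-fold above periotic tissue (0.77 ± 0.147, *q* = 0.00204) and 1.44-fold above embryo-minus-otic (0.53, *q* = 0.028), the latter lost in 7 of 18 alternatives, among them each omission of 1 OV pool and of embryo-minus-otic replicate 2 (*q* up to 0.136). *Gpc6* rose by 0.39 (*q* = 0.0228) and 0.45 (*q* = 0.00958) in the same comparisons, and without OV replicate 3 its difference from embryo-minus-otic was 0.34 (*q* = 0.0565).

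*Gpc3*, an X-linked glypican that restrains embryonic growth, was lower in both regions of the head than in the embryo at large. It measured 11.19, 11.06 and 11.02 in OV, against 11.10, 10.80 and 10.92 in periotic tissue and 11.88, 11.57 and 11.82 in embryo-minus-otic. OV and periotic tissue overlapped (0.15, *q* = 0.546), and all 6 of their pools lay below the embryo-minus-otic pools. OV was 1.59-fold lower (-0.67 ± 0.106, *q* = 3.86e-04) and periotic tissue 1.76-fold lower (-0.82, *q* = 1.15e-04). The second *Gpc3* probe gave -0.58 (*q* = 0.00103) and -0.83 (*q* = 7.14e-05). Beside this result, the 7 mesenchymal and 4 heart muscle markers were also lower in both groups than in embryo-minus-otic, and their part was not tested. *Gpc2*, a glypican of developing neurons, was -0.29 in OV minus periotic (*q* = 0.094), and the 3 *Gpc5* probes were above background on all arrays of no group.

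Of the syndecans, the transmembrane carriers, *Sdc4* was the 1 called gene and was low in OV. It measured 6.46, 6.51 and 6.12 in the OV pools, 6.79, 6.93 and 7.19 in the periotic pools and 6.93, 6.79 and 6.98 in embryo-minus-otic. All OV pools were below all others, and 2 of the 3 were above background. OV was 1.52-fold below periotic tissue (-0.60 ± 0.121, *q* = 0.00316) and 1.45-fold below embryo-minus-otic (-0.53, *q* = 0.00795), the latter lost with median scaling (*q* = 0.108). The representative *Sdc1*, *Sdc2* and *Sdc3* probes gave 0.06, -0.08 and -0.03 against periotic tissue and 0.15, -0.13 and 0.25 against embryo-minus-otic, with no call.

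The Chst genes, most of which act on other sugars, differed in both directions, with *Chst3* and *Chst5* higher and *Chst1* and *Chst7* lower in OV than in embryo-minus-otic. *Chst3*, on chromosome 10, encodes a chondroitin 6-O-sulfotransferase. It measured 8.08, 8.14 and 8.01 in OV, against 7.31, 7.05 and 7.21 in periotic tissue and 6.67, 6.93 and 7.0 in embryo-minus-otic. The OV pools stood above all others. The fold Δ was 1.84 over periotic tissue (0.88 ± 0.103, *q* = 1.9e-05) and 2.31 over embryo-minus-otic (1.21, *q* = 6.5e-07), and the second probe gave 0.79 (*q* = 3.93e-05) and 1.04 (*q* = 2.09e-06). *Chst5*, an N-acetylglucosamine 6-O-sulfotransferase, was above background on the OV arrays alone, at 6.69, 6.71 and 6.92, against 5.86, 6.16 and 6.10 in periotic tissue and 5.96, 6.03 and 6.12 in embryo-minus-otic. OV was at least 1.51-fold above periotic tissue (0.73 ± 0.101, *q* = 1.04e-04) and at least 1.47-fold above embryo-minus-otic (0.74, *q* = 9.46e-05).

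*Chst1*, a keratan sulfate galactose 6-O-sulfotransferase encoded on chromosome 2, showed the reverse order. It measured 6.98, 7.04 and 7.15 in the OV pools, 7.57, 7.86 and 7.62 in the periotic pools and 8.02, 8.26 and 8.33 in embryo-minus-otic. The 3 groups were separate. OV was 1.54-fold below periotic tissue (-0.63 ± 0.106, *q* = 6.97e-04) and 2.21-fold below embryo-minus-otic (-1.15, *q* = 1.49e-06), and periotic tissue was 1.43-fold below embryo-minus-otic (-0.52, *q* = 0.0063). *Chst7*, X-linked and able to sulfate chondroitin, measured 7.02, 7.06 and 6.97 in OV, against 7.24, 7.22 and 7.37 in periotic tissue and 7.69, 7.71 and 7.74 in embryo-minus-otic. The 3 groups were again separate. OV was 1.62-fold below embryo-minus-otic (-0.69 ± 0.083, *q* = 2.31e-05) and periotic tissue 1.35-fold below it (-0.43, *q* = 0.00398), while OV minus periotic was -0.26 (*q* = 0.0639). For both genes the periotic call was lost with median scaling or no normalization (*q* up to 0.411 for *Chst1* and 0.608 for *Chst7*). *Chst10*, which makes the HNK-1 carbohydrate of neural cells, fell by 0.42 in OV against periotic tissue (*q* = 0.0258), a comparison in which 5 of the 7 hindbrain markers also fell, and the part of neural cells was not tested. The *Extl2* and *Chst10* calls were each lost without OV replicate 1 (*q* = 0.0501 and 0.0834) and without OV replicate 2 (*q* = 0.119 and 0.0859). Both were also lost without normalization and without periotic replicate 3, where *Chst1* and *Sdc4* were the 2 probes still called lower. With median scaling, or without OV replicate 3, periotic replicate 1 or periotic replicate 2, 3 probes were called lower. In each of these settings *Extl2*, *Chst10* or both lost the call.

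Of the 38 genes, 28 had a probe detected on every array of some group, and 11 of these were called in no comparison (*Chst2*, *Chst8*, *Chst12*, *Ext1*, *Ext2*, *Gpc2*, *Hs2st1*, *Hs6st1*, *Sdc1*, *Sdc2* and *Sdc3*). Their differences ran from -0.33 to 0.26 in OV minus periotic, from -0.28 to 0.25 in OV minus embryo-minus-otic and from -0.12 to 0.32 in periotic minus embryo-minus-otic. The outermost 95% bounds of these differences were -0.67 and 0.55. The other 10 genes (*Chst4*, *Chst9*, *Chst11*, *Extl1*, *Gpc5*, *Hs3st3b1*, *Hs6st2*, *Hs6st3*, *Ndst3* and *Ndst4*) had no probe above background on all arrays of a group, and no fold is given for them.

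Proteins that work with the family were compared through lists of further pathway genes. The lists were chosen with earlier results of these data known, so nothing is read from their counts of calls. Of 13 measured genes of the linker and of sugar and sulfate supply, 7 were above background. *Papss1*, which makes the sulfate donor of the sulfotransferases, was the 1 gene called higher in OV, with none lower. Of all probes, 5.07% were called higher in OV than in periotic tissue and 5.89% higher than in embryo-minus-otic. *Papss1* measured 11.15, 11.03 and 11.14 in the OV pools, 10.64, 10.86 and 10.54 in the periotic pools and 10.32, 10.63 and 10.53 in embryo-minus-otic. The OV pools were above all others, 1.34-fold over periotic tissue (0.43, *q* = 0.0143) and 1.53-fold over embryo-minus-otic (0.61, *q* = 8.74e-04). The median difference of the list was -0.08 and -0.03 in these comparisons.

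Of 4 measured heparan sulfate core proteins outside the glypicans and syndecans, 3 were higher in OV than in periotic tissue, and 2 were higher and 1 lower than in embryo-minus-otic. Among all probes, 5.07% were called higher in OV than in periotic tissue, and 5.89% higher and 5.51% lower than in embryo-minus-otic. *Hspg2*, which encodes the basement membrane proteoglycan perlecan, measured 9.80, 9.97 and 10.40 in OV, against 8.89, 9.12 and 9.08 in periotic tissue and 9.36, 9.38 and 9.45 in embryo-minus-otic. Its OV pools did not overlap the others (2.03-fold, *q* = 3.68e-05, and 1.58-fold, *q* = 0.00234). *Agrn*, for the basement membrane protein agrin, measured 12.44, 12.59 and 12.89 in the OV pools, 12.10, 12.18 and 12.01 in the periotic pools and 12.03, 11.87 and 11.77 in embryo-minus-otic, again without overlap (1.46-fold, *q* = 0.00423, and 1.68-fold, *q* = 2.61e-04). *Col18a1*, for collagen XVIII, rose by 0.46 against periotic tissue (*q* = 0.0252), and against embryo-minus-otic 1 of its probes was called (0.48, *q* = 0.00587) and the brighter was not (0.31, *q* = 0.152). The dimmest *Col18a1* probe, above background on 2 of 3 arrays in each group, was not called. It gave 0.03 against periotic tissue (*q* = 0.955) and 0.09 against embryo-minus-otic (*q* = 0.731). *Tgfbr3*, the membrane proteoglycan betaglycan, fell by 0.51 in OV against embryo-minus-otic (*q* = 0.00526). In the same comparisons the 2 epithelial markers were higher in OV, and their part was not tested.

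**Figure D3:**
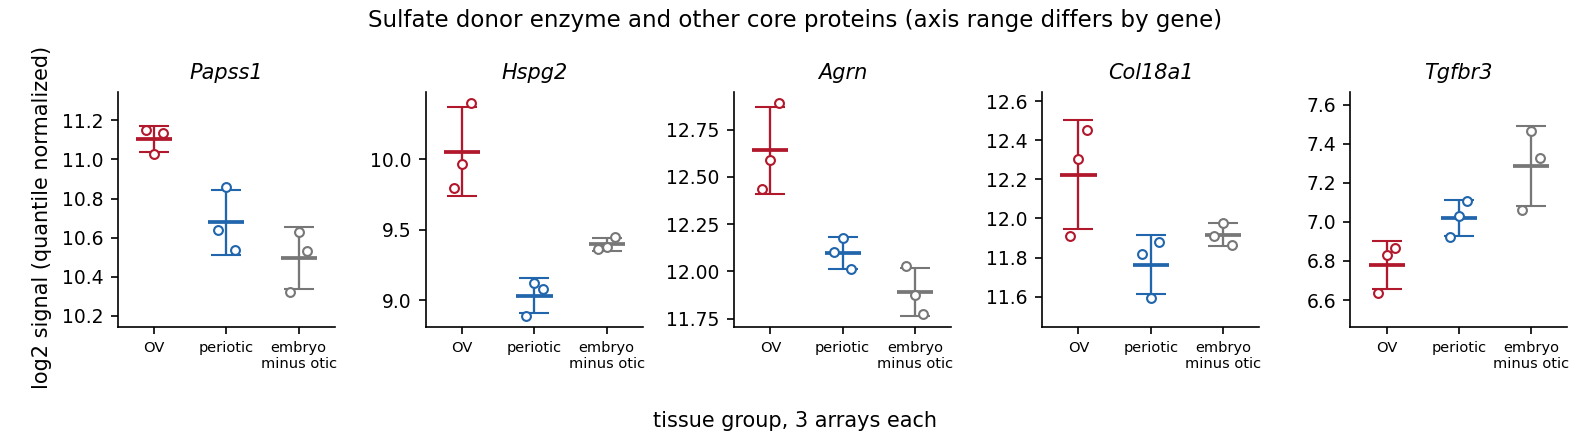
Log2 quantile-normalized signal (y axis, range set per gene) of *Papss1*, *Hspg2*, *Agrn*, *Col18a1* and *Tgfbr3* in the 3 pools of each tissue, as single arrays with mean ± SD (n = 3). The OV dots of *Papss1*, *Hspg2* and *Agrn* lie above all 6 others, from 9.80 to 10.40 for *Hspg2*.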

How the data were processed

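Total RNA of 9 pools was labelled and hybridised to Illumina MouseRef-8 v2.0 arrays, and the authors read probe intensity in GenomeStudio. The deposited table holds 1 linear intensity and 1 detection p-value per probe and array, without normalization. Background subtraction is not given in the sources used here. Intensities were floored at 1, taken to log2 and quantile-normalized over the 9 arrays, as the study's methods state for log2 and quantile (there together with other arrays, not used here). One limma 3.58.1 model (R 4.3.3) of 3 groups, without covariates, was fitted to all 25697 probes with lmFit and eBayes, and p-values were Benjamini-Hochberg adjusted over all of them. Groups came from the sample titles.

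A probe with detection *p* below 0.01 was above background. Where a group was above background on no array, the fold is a lower bound ("at least"), set against, per array, the higher of the dimmest signal above background and the probe's own. The number of arrays limits the precision. A gene with several probes is given by the brightest on average over all arrays. Genes given in full were above background on all arrays of a group and called with a difference of at least 0.5 log2 units. Members, lists and tests were chosen with earlier results of these data known. Alternatives were background modelling from the detection p-values (neqc, offset 16), median or no normalization, filters at detection *p* 0.01 and 0.05, fitting only the groups compared, a replicate block, an intensity trend, array weights and omission of each array. The fit was tested on simulated data. One otic marker is not reported here.

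Correlations of deviations from the group means between same-numbered pools of different tissues ran from 0.00074 to 0.232. Between differently numbered pools of different tissues they ran from -0.227 to 0.0745. Whether a number marks a litter is not stated, so pools were not paired.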

Additional observations from a re-analysis of the deposited data

How the results depend on the processing

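Of 27 called comparisons of the 13 genes given in full, the 2 of *Hs3st1* in OV included, 19 were called under all 18 alternatives, the 8 others lost the call under at least 1, and none changed sign. Of 12 uncalled comparisons, 4 passed under an alternative. The causes were not tested. Without normalization, 7 probes (in place of 11) were higher in OV than in embryo-minus-otic and 7 (11) than in periotic tissue, 2 (4) were lower in OV than in periotic tissue, and 2 (5) lower in periotic tissue than in embryo-minus-otic. Median normalization gave 4 (1) higher and 2 (5) lower in periotic tissue than in embryo-minus-otic, so that 66.7% in place of 16.7% of these calls were higher, and 3 (6) lower in OV than in embryo-minus-otic (76.9% in place of 64.7% higher). Leaving out each array in turn gave 7 (without OV replicate 3) to 11 probes higher and 5 to 6 lower in OV than in embryo-minus-otic, 10 to 12 higher and 2 (without OV replicate 1, OV replicate 2 or periotic replicate 3) to 4 lower in OV than in periotic tissue, and 1 to 2 higher (2 without embryo-minus-otic replicate 2 or 3) and 5 to 7 lower in periotic tissue than in embryo-minus-otic. Without OV replicate 3, *Extl3*, *Chst9*, *Gpc4* and *Gpc6* lost their call over embryo-minus-otic.

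With the replicate block, 2 probes were higher in periotic tissue than in embryo-minus-otic, 7 were lower in OV and 6 in periotic tissue than in embryo-minus-otic, and all 27 calls held. In the check of the pairing, 6 of 9 arrays correlated best with their own number.

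Differences between the non-otic groups that were not called changed sign as follows. *Chst5* (0.01) was -0.12 without normalization, -0.0202 with array weights and -0.0501 to 0.10 with 1 array left out. *Gpc1* (0.03) ran from -0.0694 to 0.17 and *Sdc4* (0.07) from -0.0404 to 0.16 with 1 array left out, and *Hs3st1* (-0.06) was 0.0539 with median normalization. Signal near background limits *Hs3st6*, *Chst5* and *Sdc4*. The OV differences of *Hs3st6* and *Chst5*, for which only lower bounds are given, were larger with modelled background.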

Other observations

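Core proteins of chondroitin and dermatan sulfate, the sister chains of heparan sulfate, were compared together with other leucine-rich core proteins. Several genes of this mixed list had less signal in OV. Of 10 measured chondroitin or leucine-rich core protein genes, 6 were above background, 1 was higher and 4 were lower in OV than in periotic tissue, and 3 were lower in OV than in embryo-minus-otic. Over all probes, 5.07% were called higher and 5.15% lower in OV than in periotic tissue, and 5.51% lower than in embryo-minus-otic. This list too was chosen with earlier results known, so nothing is read from its counts. *Vcan*, for the matrix proteoglycan versican, rose by 0.61 in OV against periotic tissue (limma *q* = 0.00312). *Ncan*, for the neural proteoglycan neurocan, was 2.82-fold lower in OV than in periotic tissue (-1.50, *q* = 5.9e-07), with 1 of 3 OV arrays above background, and *Cspg5*, also neural, was at least 1.43-fold lower (*q* = 2.68e-05). Both were higher in periotic tissue than in embryo-minus-otic, by 1.14 (*q* = 2.91e-05) and 0.59 (*q* = 5.05e-04), as were 5 of the 7 hindbrain markers, whose part was not tested.

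The connective tissue members *Dcn* (decorin) and *Lum* (lumican) were 3.61-fold and 2.66-fold lower in OV than in embryo-minus-otic (-1.85, *q* = 1.41e-06, and -1.41, *q* = 3.33e-06), *Dcn* with 2 of 3 OV arrays above background. *Bgn* (biglycan) fell by 0.58 in OV against periotic tissue (*q* = 0.0014) and by 0.76 against embryo-minus-otic (*q* = 1.21e-04). Of 5 measured chondroitin chain enzymes outside the Chst names, none was called in any comparison, and *D4st1*, a dermatan 4-O-sulfotransferase, was the 1 above background. All 7 mesenchymal and 4 heart muscle markers were likewise lower in OV than in embryo-minus-otic, and their part in these differences was not tested.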
